A study of Mus musculus with 4 samples.

Results

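The transcripts described here belong to 36 genes of antioxidant defence and glutathione metabolism in mouse cells that the labels call Kupffer cells, macrophages that reside in the liver. They were taken by gene symbol from tables of 56004 gene rows, and each of the 36 symbols was found in 1 row. The genes comprise the regulators NRF2 (Nfe2l2) and KEAP1 (Keap1), the enzymes that make, recycle and use glutathione, and the thioredoxins and peroxiredoxins. The others are catalase, superoxide dismutase 1, a group of enzymes that make NADPH or are tied to it, and 2 metallothioneins. The cells were kept with exosomes, small vesicles that cells shed, for 48 h before RNA was taken. These exosomes came from mouse MC38 colon carcinoma cells of a line named MC38-PRL-3 (2 libraries) or a line named MC38-VT (2 libraries). PRL-3 is a protein phosphatase, and what VT stands for is not spelled out in the labels. An amount of 10 ug is written beside the MC38-VT exosomes, and it is not clear whether it also applies to the MC38-PRL-3 exosomes. No age, sex, strain or genotype of the source animals was given, and every library came from exosome-treated cells, so no value stands for untreated cells. The libraries are called biological replicates in the labels without saying what separated the cultures, so the p values below measure the spread between these libraries, which may be technical.

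NRF2 is a transcription factor that KEAP1 holds at a low level by directing it to degradation. When electrophiles or oxidants modify KEAP1, NRF2 accumulates and binds antioxidant response elements (AREs) in the promoters of genes for glutathione synthesis, thioredoxin reductase, quinone reductase and the pentose phosphate pathway. Glutathione and thioredoxin are the main thiol reductants of the cell, they pass electrons to the peroxidases that remove hydrogen peroxide and lipid peroxides, and both are returned to the reduced form at the expense of NADPH. Macrophages make superoxide with the NADPH oxidase, so the same NADPH pool feeds the production of oxidants and their removal.

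Values are FPKM (fragments for each kilobase of a transcript and each 1e6 fragments) and can be compared between genes because they are per length. The number of sequenced fragments, recovered from the steps between low values, was 16.8 to 18.2 in units of 1e6, lowest in PRL-3 replicate 1. PRL-3 replicate 1 stood apart from the others. The SD of its log2 ratio to each other library was 0.402 to 0.412 across the tested genes, against 0.313 to 0.366 between the other libraries. Results are therefore also given without it where it decided their direction. Of 10 macrophage markers, 1 was under 1 FPKM in every library, and the most abundant, Lyz2, was between 5916 and 6831 FPKM. Of 12 markers of resident Kupffer cells, 9 were under 1 FPKM in every library and 5 (Clec4f, Vsig4, Timd4, Marco and Cd163) were listed at 0, so the libraries carried a macrophage signature without the defining Kupffer cell transcripts.

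In these cells the antioxidant transcripts were abundant and differed little between the groups. Of the 36 genes, 34 had a value above 0 in at least 1 library, and 15 had a mean of 100 FPKM or more. Together they took 0.739% and 0.779% of the summed FPKM after PRL-3 exosomes, against 0.822% and 0.786% after VT exosomes, replicate 1 first as in every pair of values below. Enough signal for a test, an FPKM of at least 1 in 2 libraries, was found for 31 genes, which were compared with limma on log2(FPKM + 1) in a fit over 12193 gene rows. None of the 31 passed an adjusted p (Benjamini-Hochberg over all rows) of 0.05, where 0.0492% of all rows tested did so (6 rows, 0.0246% higher and 0.0246% lower in PRL-3). The adjusted p values of the 31 ran from 0.445 to 0.998. The unadjusted p was under 0.05 for 4 genes (Pgd, Gsto1, G6pdx and Gsr), in a data set where 9.51% of all rows tested reached that level. The PRL-3 mean was the lower one in 19 genes and the higher one in 12, and was lower in 46.6% of all rows. The log2 differences, PRL-3 minus VT, lay between -0.49 (Pgd) and 0.36 (Gsto1) with a median of -0.04, beside a median of 0.02 over all rows tested. The median size of the difference, whatever its sign, was 0.134 for these genes and 0.131 for all rows.

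**Figure D1:**
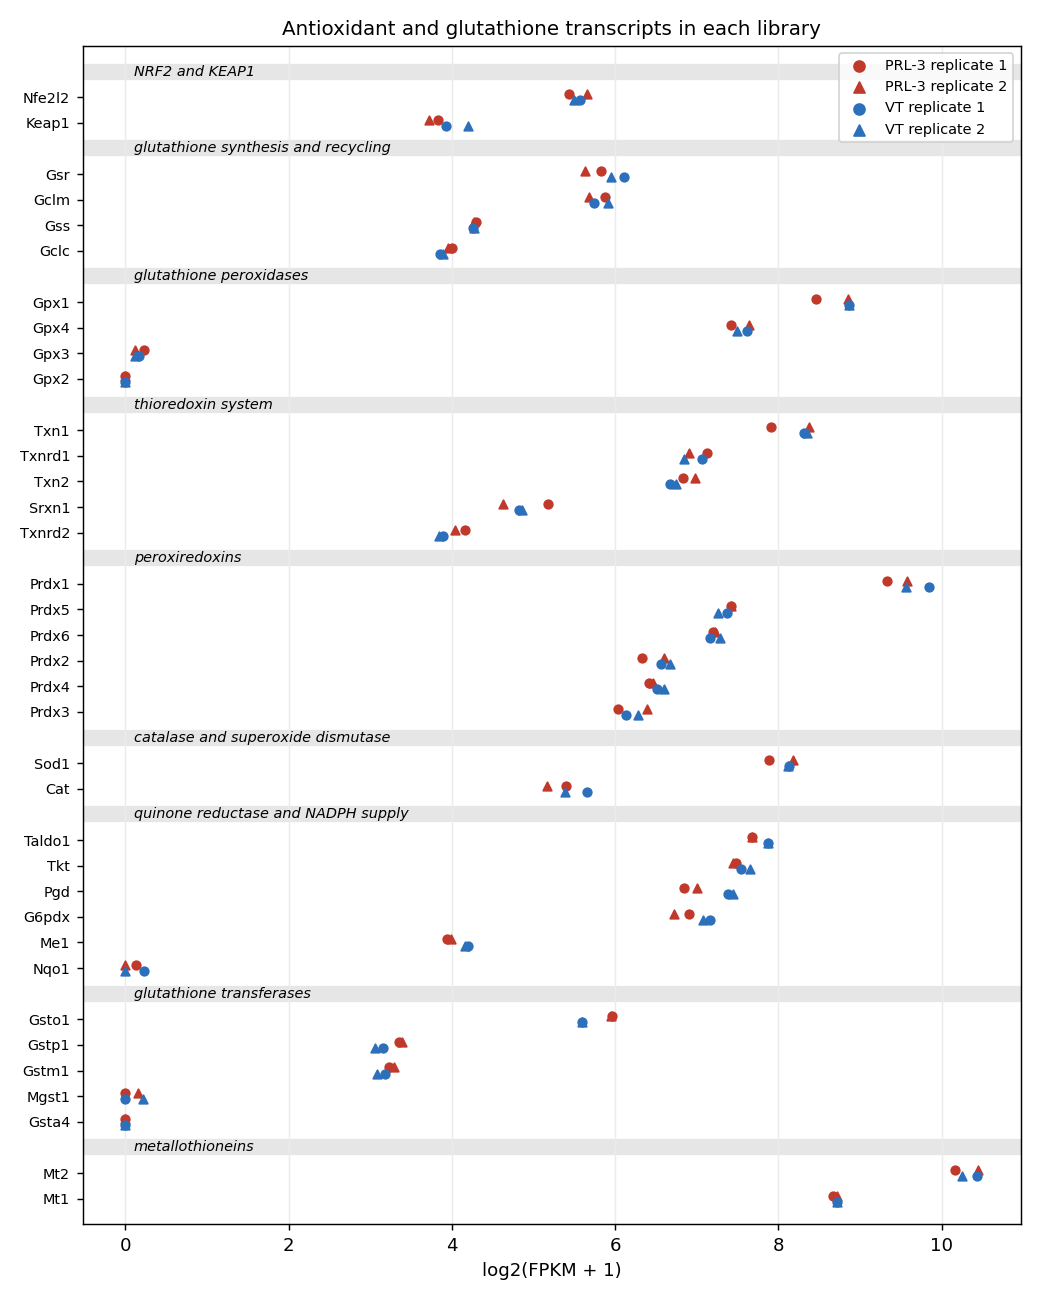
Level of each of the 36 transcripts in each library, as log2(FPKM + 1), grouped by the role of the product, with PRL-3 libraries in red and VT libraries in blue (circles, replicate 1 and triangles, replicate 2). Mt2 stood highest and Gpx2, Gsta4, Gpx3, Nqo1 and Mgst1 stood at or near 0, and for most transcripts the 4 points lay close together.

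In 10 of the 31 tested genes the values of both PRL-3 libraries were lower than either VT value (32.3%), where 18% of all rows tested did so. In 7 genes both were higher (22.6%), against 24.3% of all rows. In the other 14 the groups overlapped. These shares depend on the level of a gene. Among rows with a mean of 100 FPKM or more, 24.6% lay below in both PRL-3 libraries and 15.1% above. They also depend on scaling and on single libraries. Under quantile normalization 7 genes were lower and 7 higher in both PRL-3 libraries. The shares of all rows under that normalization were not counted. Without PRL-3 replicate 2 the genes below numbered 18, with 39.9% of all rows below, and without PRL-3 replicate 1 the genes above numbered 13, with 43.9% of all rows above. With 2 libraries against 2, an exact two-sided permutation test of a single gene cannot give a p under 0.33.

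**Figure D2:**
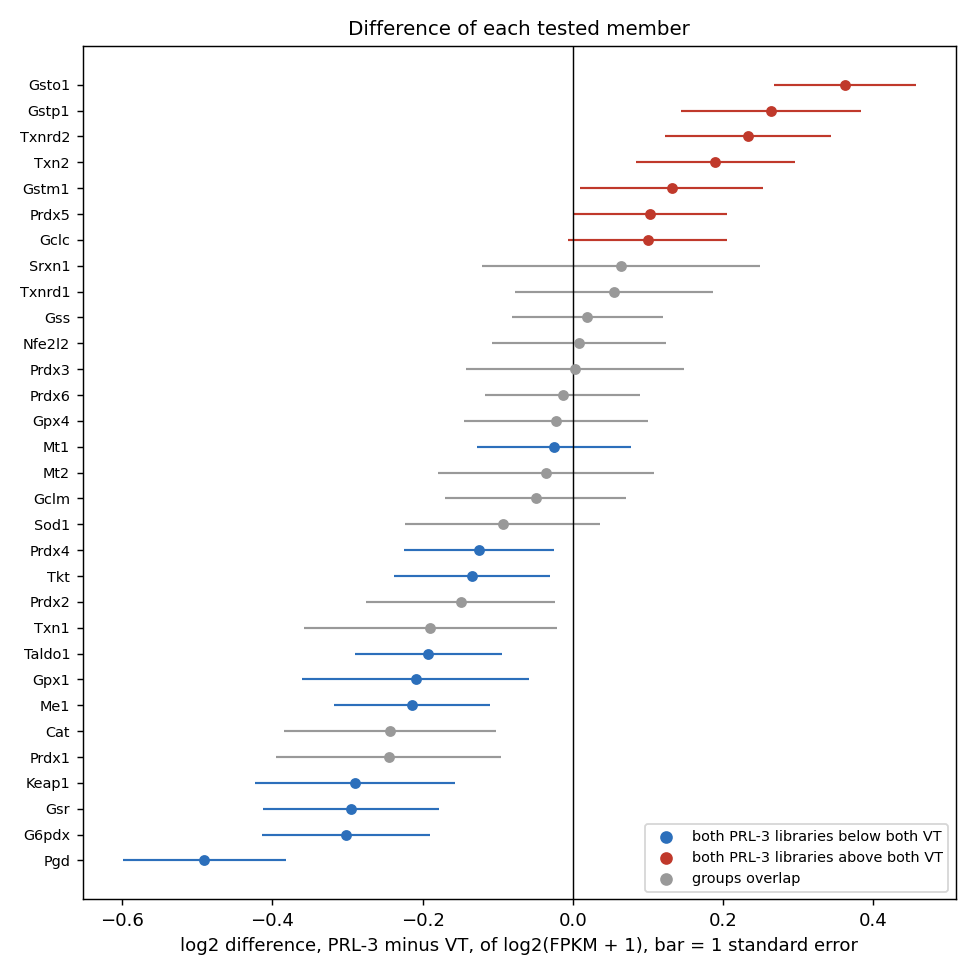
Difference of each of the 31 tested genes, as PRL-3 less VT in log2(FPKM + 1), with bars of 1 standard error from limma. Blue points mark the 10 genes with 2 lower PRL-3 values, red points the 7 with 2 higher PRL-3 values, and grey points the 14 that overlapped. Pgd lay farthest to the left at -0.49 and Gsto1 farthest to the right at 0.36.

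The NADPH group of the 36 genes held enzymes of the pentose phosphate pathway, the malic enzyme Me1 and the quinone reductase Nqo1. Taldo1 and Tkt, of the non-oxidative branch, do not form NADPH themselves, and Nqo1 uses it. The group sum is therefore not one of NADPH-forming enzymes alone. In all 5 that were tested (G6pdx, Pgd, Taldo1, Tkt and Me1) neither PRL-3 value reached a VT value, as in 18% of all rows and 24.6% of rows with a mean of 100 FPKM or more, and none passed the adjusted p. The summed FPKM of the group, with Nqo1 included, was 628 and 624 after PRL-3 exosomes against 743 and 757 after VT exosomes. The PRL-3 mean of the sum was 83.5% of the VT mean. Each of the 5 kept its sign under all 13 alternative settings, of which only the changes of scaling could have turned it. Where the groups do not overlap, leaving out a library cannot turn a sign. Of the 5, 4 (all but Me1) had a mean of 100 FPKM or more.

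Pgd encodes 6-phosphogluconate dehydrogenase, which forms NADPH in the oxidative branch of the pentose phosphate pathway (chromosome 4, 149149991 to 149166771, minus strand, GRCm38). It was at 114 and 128 FPKM after PRL-3 exosomes and at 166 and 173 after VT exosomes, with a gap between the groups wider than either pair. The PRL-3 mean was 71.1% of the VT mean, the lowest share among the tested genes. The log2 difference of Pgd was -0.49 (SE 0.11, 95% interval -0.76 to -0.22, adjusted p = 0.445 from limma with Benjamini-Hochberg adjustment). Over the 13 alternatives the adjusted p values of all tested members stayed at or above 0.0603, which was that of Pgd without PRL-3 replicate 2.

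G6pdx encodes glucose-6-phosphate dehydrogenase, the first and rate-limiting enzyme of the same branch (chromosome X, 74409483 to 74429194, minus strand). It was at 119 and 105 FPKM after PRL-3 exosomes and at 142 and 133 after VT exosomes. Both PRL-3 values were thus below both VT values, with a log2 difference of -0.30 (SE 0.11, adjusted p = 0.510 in limma after Benjamini-Hochberg adjustment). G6pdx shares 418 exonic bases with Ikbkg on the opposite strand, which was at 12.5 to 14.6 FPKM, and it is not stated whether the libraries kept the strand, so reads in the shared stretch cannot be told apart.

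The non-oxidative branch showed smaller differences. Taldo1, transaldolase, was at 203 and 204 FPKM after PRL-3 exosomes and at 233 in both VT libraries, 87.5% of the VT mean. Tkt, transketolase, was at 178 and 172 against 185 and 200 FPKM, 91.0% of the VT mean. The libraries of a group were nearly equal in Taldo1, while in Tkt the gap between the groups was narrow. Me1, the cytosolic malic enzyme that makes NADPH from malate, was at 14.4 and 14.9 FPKM against 17.3 and 17.0. A processed pseudogene, Gm7329, matches 210 bases of Me1 transcripts at 99.0% identity and was listed only in PRL-3 replicate 2, at 4.53 FPKM, whereas the near-identical pseudogene copies found for other members stayed at or below 0.76 FPKM. The adjusted p values of Taldo1, Tkt and Me1 in limma were 0.593, 0.717 and 0.583. Nqo1, the NADPH-dependent quinone reductase that is the usual reporter of NRF2 activity, was all but missing. It was listed at 0.09 FPKM in PRL-3 replicate 1 and at 0.17 in VT replicate 1, about 2.03 and 4.07 fragments, and at 0 in the other libraries.

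**Figure D3:**
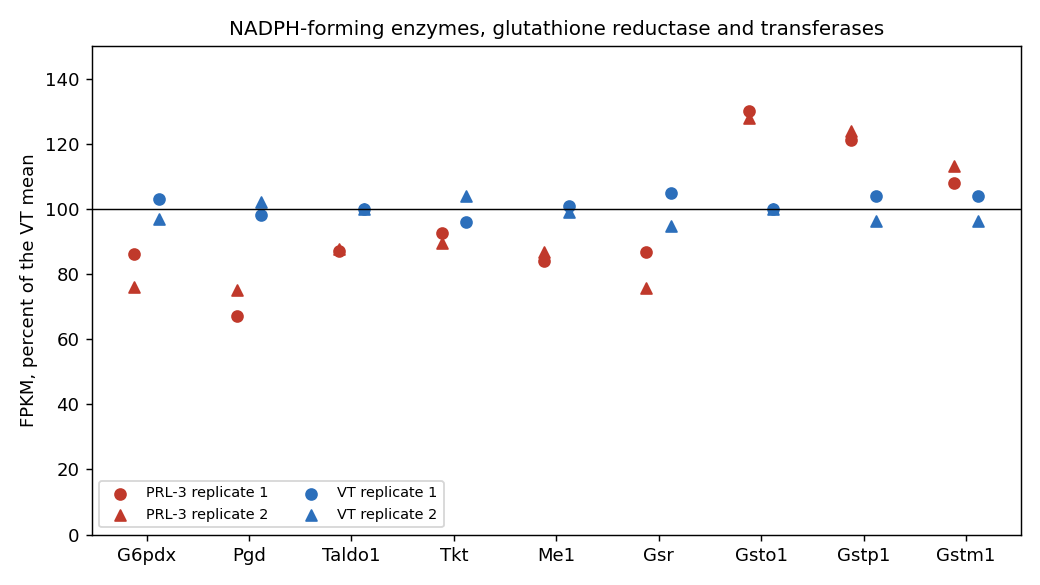
FPKM of the tested genes of the NADPH group, of glutathione reductase and of the tested glutathione transferases in each library. Values are a percent of the mean of the 2 VT libraries (line at 100). PRL-3 is in red and VT in blue (circles, replicate 1 and triangles, replicate 2). The PRL-3 libraries lay at 67.0% to 92.5% of the VT mean for the first 6 genes and at 108% to 130% for the transferases.

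The glutathione transferases lay on the other side. These enzymes couple glutathione to electrophiles or, for the omega class, reduce disulfides between glutathione and protein thiols. All 3 that were tested (Gsto1, Gstp1 and Gstm1) were above both VT libraries in both PRL-3 libraries, as were 24.3% of all rows, and none passed the adjusted p. Their summed FPKM, with Mgst1 and Gsta4 included, was 79.2 and 79.0 after PRL-3 exosomes and 63.2 and 62.3 after VT exosomes, so that the PRL-3 mean was 126% of the VT mean. The signs were the same under all 13 alternatives, of which only the changes of scaling could have turned them, because the groups did not overlap.

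Gsto1, omega-class transferase 1 (chromosome 19, 47854970 to 47864790, plus strand), was the most abundant of them. It was at 61.5 and 60.6 FPKM after PRL-3 exosomes and at 47.2 and 47.3 after VT exosomes. Libraries of a group differed by less than 1 FPKM, and the PRL-3 mean was 129% of the VT mean. The log2 difference was 0.36 (SE 0.09, 95% interval 0.13 to 0.59, adjusted p = 0.449 in limma with Benjamini-Hochberg adjustment), the highest among the tested genes. Gstp1, the pi-class transferase, was at 9.25 and 9.49 FPKM against 7.93 and 7.35, with a log2 difference of 0.26 (adjusted p = 0.562, limma). Its near-identical neighbour Gstp2, with 98.2% identity over 707 bases, was listed at 0.3 FPKM or less. Gstm1, of the mu class, was at 8.38 and 8.80 FPKM against 8.05 and 7.46, a small gap between groups, with a log2 difference of 0.13 (adjusted p = 0.764, limma). Gsta4, which conjugates lipid aldehydes, was listed at 0 in all 4 libraries, and the membrane-bound Mgst1 reached at most 0.16 FPKM.

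Neither regulator passed the adjusted p. Nfe2l2, which encodes NRF2, was at 42.1 and 49.4 FPKM after PRL-3 exosomes and at 46.4 and 44.3 after VT exosomes. The groups overlapped, and the log2 difference was 0.01 (95% interval -0.27 to 0.29, adjusted p = 0.990, limma). Its sign turned when the libraries were scaled by the median of ratios (-0.01) or when single libraries were left out. Keap1 was at 13.2 and 12.1 FPKM against 14.2 and 17.3, both PRL-3 libraries being lower, with a log2 difference of -0.29 (SE 0.13, 95% interval -0.62 to 0.04, adjusted p = 0.562, limma). In Keap1 the VT libraries differed more from each other than VT replicate 1 did from either PRL-3 library. An antisense gene, Gm16754, shares 510 exonic bases with Keap1 and reached 1.46 FPKM. These are transcript levels, and NRF2 is controlled mainly as a protein, which was not measured.

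Promoter windows from RefSeq (GRCm38.p6), covering the 250 bases before an annotated start, were at hand for 32 of the 36 genes in 41 windows. Gclc, Gsr, Prdx6 and Gsta4 were not searched. The ARE core TGACNNNGC, searched on both strands, was in 8 of the 41 windows (19.5%) and in 10.2% of all 32851 windows in the table. The matches are shown because the ARE is the element through which NRF2 acts on genes of this kind. Each is printed on the strand that reads TGACNNNGC, with the match in capitals and 10 bases on either side.
Nfe2l2: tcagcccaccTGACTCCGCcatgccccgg
Gclm: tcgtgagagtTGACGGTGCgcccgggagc
Prdx1: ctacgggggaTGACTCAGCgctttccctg
Mgst1: ccccgcctccTGACCGTGCcaagccccgc
Mt2: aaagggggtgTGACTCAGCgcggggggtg
Txnrd1: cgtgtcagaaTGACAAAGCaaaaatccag
Sod1: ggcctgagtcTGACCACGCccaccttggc
G6pdx: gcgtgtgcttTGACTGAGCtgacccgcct
The printed stretches lie at chr2:75704885-75704913 (Nfe2l2, minus strand printed), chr3:122245413-122245441 (Gclm, minus), chr4:116685456-116685484 (Prdx1, minus), chr6:138140461-138140489 (Mgst1, minus), chr8:94172529-94172557 (Mt2, plus), chr10:82859104-82859132 (Txnrd1, minus), chr16:90220696-90220724 (Sod1, minus) and chrX:74428919-74428947 (G6pdx, plus). Only in Nfe2l2 and Mt2 did the core read along the strand of the gene. In Prdx1 and Mt2 the match also held the AP-1 core TGANTCA, which was in 4 of the 41 windows (9.76%) and in 6.75% of all windows. The 8 genes did not share a direction. G6pdx lay below in both PRL-3 libraries, the groups overlapped in Nfe2l2, Gclm, Prdx1, Txnrd1, Sod1 and Mt2, and Mgst1 was near 0.

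In glutathione synthesis and recycling the 3 synthesis genes differed little and the reductase was lower in PRL-3. Gclc, the catalytic subunit of glutamate-cysteine ligase, was at 15.0 and 14.5 FPKM after PRL-3 exosomes and at 13.5 and 13.8 after VT exosomes, so both PRL-3 values were higher (log2 difference 0.10, adjusted p = 0.798, limma). Gclm, the modifier subunit of the ligase, was at 57.8 and 50.1 FPKM against 52.6 and 59.0, with overlapping groups. The modifier was thus listed at 3.45 to 4.26 times the level of the catalytic subunit. Gss, glutathione synthetase, varied little, at 18.7 and 18.3 FPKM against 18.1 and 18.4 (log2 difference 0.02, 95% interval -0.23 to 0.26).

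Gsr, glutathione reductase, uses NADPH to return oxidised glutathione to its reduced form (chromosome 8, 33652523 to 33698163, plus strand). It was at 55.9 and 48.7 FPKM after PRL-3 exosomes and at 67.7 and 60.9 after VT exosomes. Both PRL-3 libraries were lower, the PRL-3 mean was 81.3% of the VT mean, and the log2 difference was -0.30 (SE 0.12, 95% interval -0.58 to -0.01, adjusted p = 0.514 in limma with Benjamini-Hochberg adjustment). Gsr stood with Pgd and G6pdx among the 4 genes at an unadjusted p under 0.05, so that 3 of the 4 make or spend NADPH. That count was made after the values were seen and was not tested.

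In Txn1, Gpx1 and Sod1 a single library, PRL-3 replicate 1, lay apart from the other 3. Txn1, thioredoxin 1, reduces peroxiredoxins in the cytosol. It was at 239 FPKM in PRL-3 replicate 1 and at 332 in PRL-3 replicate 2, and at 318 and 325 after VT exosomes. Only PRL-3 replicate 1 was low, and its value rested on about 3385 fragments against 4769 to 5002 in the other libraries. The log2 difference of Txn1 was -0.19 (SE 0.17, adjusted p = 0.756, limma), and 0.05 without that library. Gpx1, the abundant cytosolic glutathione peroxidase, had the same shape at 352 and 461 FPKM against 467 and 465. Its log2 difference was -0.21 (SE 0.15, adjusted p = 0.694, limma), and -0.01 without PRL-3 replicate 1. Sod1, which turns superoxide into hydrogen peroxide, was at 235 and 288 FPKM against 280 and 276, with a log2 difference of -0.09 that became 0.05 without PRL-3 replicate 1.

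Among the 31 tested genes PRL-3 replicate 1 was the lowest of the 4 libraries in 14. It was lower than PRL-3 replicate 2 by more than 0.2 on the log2 scale in 9 genes and higher by more than 0.2 in 4, whereas VT replicate 1 was lower than VT replicate 2 by that much in 1 gene and higher in 3. Across protein-coding genes of a mean of 5 FPKM or more, the median difference between PRL-3 replicates 1 and 2 was -0.08 for median transcript lengths up to 700 bases and -0.01 for lengths over 2500 bases. Between the VT replicates it was 0.01 and 0.00 for these lengths. The part of transcript length in the low values of Txn1, Gpx1 and Sod1 was not tested.

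**Figure D4:**
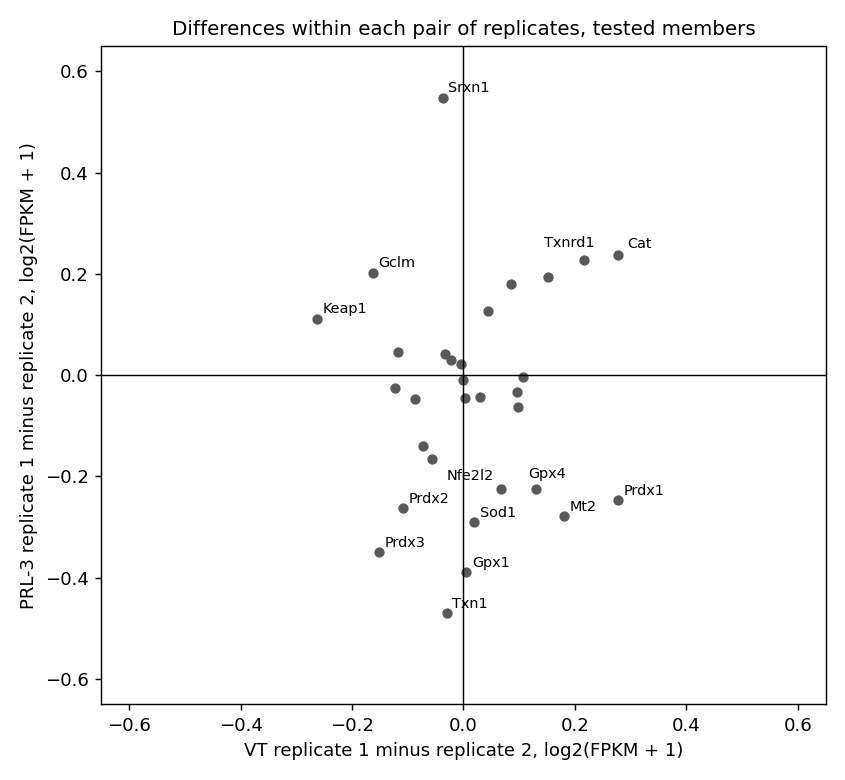
Difference between the replicates of each group for the 31 tested genes, in log2(FPKM + 1), with VT replicate 1 minus replicate 2 on the horizontal axis and PRL-3 replicate 1 minus replicate 2 on the vertical axis. Genes that differed by more than 0.2 in either pair are named. The points spread farther along the vertical axis, from Txn1 at the bottom to Srxn1 at the top.

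The other glutathione peroxidases gave no gap between the groups. Gpx4, which reduces lipid hydroperoxides in membranes, was at 170 and 199 FPKM after PRL-3 exosomes and at 195 and 179 after VT exosomes. Its log2 difference of -0.02 (95% interval -0.32 to 0.28) changed sign under quantile normalization (0.02) and when values were rescaled to a common sum (4.69e-05), and was 0.09 without PRL-3 replicate 1. The secreted Gpx3 stayed at or below 0.17 FPKM, and Gpx2, the enzyme of the gut epithelium, was listed at 0 in every library. The summed FPKM of the 4 peroxidases was 90.5% of the VT mean in PRL-3, and its log2 ratio of -0.14 became 0.02 without PRL-3 replicate 1.

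The mitochondrial Txn2 and Txnrd2 were higher in both PRL-3 libraries, as were 24.3% of all rows, and neither passed the adjusted p. The mitochondrial peroxiredoxin Prdx3 overlapped between the groups (log2 difference 0.003). Txn2, mitochondrial thioredoxin, was at 113 and 125 FPKM after PRL-3 exosomes and at 101 and 107 after VT exosomes (log2 difference 0.19, SE 0.11, adjusted p = 0.619, limma). Txnrd2, its reductase, was at 16.9 and 15.4 FPKM against 13.8 and 13.4, both PRL-3 libraries being higher (log2 difference 0.23, SE 0.11, adjusted p = 0.576, limma). The cytosolic reductase Txnrd1 was far more abundant, at 7.68 to 9.64 times the FPKM of Txnrd2.

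Txnrd1 was at 139 and 118 FPKM after PRL-3 exosomes and at 133 and 114 after VT exosomes, where replicate 1 was the higher library in both groups and the groups overlapped (log2 difference 0.05, 95% interval -0.27 to 0.38, and -0.06 without PRL-3 replicate 1). Srxn1, sulfiredoxin, repairs over-oxidised peroxiredoxins. It was at 35.1 FPKM in PRL-3 replicate 1 and at 23.7 in PRL-3 replicate 2, against 27.2 and 27.9, so that the PRL-3 pair held both the highest and the lowest value. The sign of the Srxn1 difference followed the library left out, with 0.34 without PRL-3 replicate 2 and -0.21 without PRL-3 replicate 1.

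The peroxiredoxins, which remove hydrogen peroxide with a reactive cysteine, did not share a direction. Prdx1 was the most abundant enzyme of the set at 644 and 764 FPKM after PRL-3 exosomes and 915 and 755 after VT exosomes. VT replicate 2 lay just below PRL-3 replicate 2, so the groups overlapped (log2 difference -0.25, SE 0.15, adjusted p = 0.641, limma). Prdx4, the enzyme of the endoplasmic reticulum, was at 84.1 and 86.9 FPKM against 90.5 and 96.2, both PRL-3 values being lower (log2 difference -0.12, adjusted p = 0.724, limma). Prdx5, found in mitochondria, peroxisomes and cytosol, was at 170 FPKM in both PRL-3 libraries against 164 and 152, both PRL-3 values being higher (log2 difference 0.10, adjusted p = 0.783, limma). It shares 409 exonic bases with Trmt112 on the other strand, at 68.7 to 76.0 FPKM.

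The remaining peroxiredoxins overlapped between groups. Prdx2, abundant in the cytosol, was at 79.7 and 95.9 FPKM after PRL-3 exosomes and at 93.4 and 101 after VT exosomes. Its exons overlap those of Rnaseh2a and Junb, so part of its reads is uncertain. Prdx3, the mitochondrial enzyme that Txn2 serves, was at 64.6 and 82.7 FPKM against 69.2 and 76.9, the widest spread of the family within the PRL-3 pair on the log2 scale. Prdx6, the 1-cysteine member, was at 146 and 148 FPKM against 142 and 155. The log2 differences of Prdx3 and Prdx6 were 0.00 and -0.01, and both turned sign under a change of scaling (Prdx3 to -0.02 by the median of ratios, Prdx6 to 0.01 by quantile normalization or a common sum). Catalase (Cat), the peroxisomal enzyme, was at 41.1 and 34.7 FPKM after PRL-3 exosomes and at 49.6 and 40.7 after VT exosomes. Its groups overlapped by a narrow margin, with a PRL-3 mean at 84.0% of the VT mean (log2 difference -0.24, SE 0.14, adjusted p = 0.631, limma).

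The metallothioneins, cysteine-rich proteins that bind zinc and copper and scavenge radicals, held the highest transcript of the set. Mt2 was at 1148 and 1393 FPKM after PRL-3 exosomes and at 1380 and 1217 after VT exosomes, with overlapping groups (log2 difference -0.04, 95% interval -0.39 to 0.32, and 0.10 without PRL-3 replicate 1). Mt1 was at 405 and 419 FPKM against 420 and 419, and its PRL-3 libraries lay below the VT libraries by a margin far smaller than the standard error (log2 difference -0.02, SE 0.10). Under quantile normalization the difference of Mt1 became 0.04. The ratio of Mt2 to Mt1 was between 2.83 and 3.33 in the 4 libraries. The genes lie next to each other on chromosome 8, and an antisense gene, Gm45774, covers 432 exonic bases of Mt2 at 0.67 to 0.98 FPKM. The windows before their RefSeq starts are shown because metal response elements (MREs) are known to drive these genes. Capitals mark the MRE core TGCNCNC on either strand.
Mt2: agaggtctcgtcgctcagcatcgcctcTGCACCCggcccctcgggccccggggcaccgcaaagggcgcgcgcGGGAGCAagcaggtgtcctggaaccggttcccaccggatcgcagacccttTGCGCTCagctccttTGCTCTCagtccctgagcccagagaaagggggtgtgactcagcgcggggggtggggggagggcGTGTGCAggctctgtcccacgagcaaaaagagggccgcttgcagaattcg
Mt1: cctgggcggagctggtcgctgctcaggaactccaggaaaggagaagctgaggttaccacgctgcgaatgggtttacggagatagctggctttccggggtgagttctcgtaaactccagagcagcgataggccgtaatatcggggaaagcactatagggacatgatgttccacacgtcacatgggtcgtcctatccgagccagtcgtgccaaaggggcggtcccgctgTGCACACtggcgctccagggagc
These are chr8:94172368-94172617 (Mt2) and chr8:94178839-94179088 (Mt1), plus strand, from RefSeq on GRCm38.p6, each ending at the base before the RefSeq start. The core was found 5 times in the Mt2 window and 1 time in the Mt1 window. It was in 21 of the 41 windows of these genes (51.2%) and in 44.4% of all windows, so a match is common in windows of this length. Bases after the RefSeq start were not searched, so the counts need not cover every MRE of Mt1 or Mt2. A link between the counts and the levels of these genes was not tested.

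Around these genes, 7 lists of other genes of the same pathways held 122 genes, of which 96 were tested and none passed the adjusted p (lowest 0.445, limma with Benjamini-Hochberg adjustment). An unadjusted p under 0.05 was given to 6 with a higher and 6 with a lower mean in PRL-3. The PRL-3 values were lower than both VT values in 22 of the 96 (22.9%) and higher in 16 (16.7%), beside the 18% and 24.3% of all rows. The median log2 difference was -0.02.

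In the list of other NADPH and pentose phosphate genes, 15 of 16 were tested, with 4 below, 2 above and none past the adjusted p. Of all rows, 18% lay below and 24.3% above. Idh1, the cytosolic NADP-dependent isocitrate dehydrogenase, was at 30.02 and 31.0 FPKM after PRL-3 exosomes and at 37.9 and 38.7 after VT exosomes, lower in both (log2 difference -0.32, SE 0.10, adjusted p = 0.479, limma). Aldh1l2, a mitochondrial folate enzyme that forms NADPH, was at 53.3 and 45.0 FPKM against 36.5 and 32.0, higher in both (log2 difference 0.51, SE 0.13, adjusted p = 0.445, limma). The NADPH-forming enzymes therefore did not all lie on one side. The summed FPKM of the list was 616 and 643 after PRL-3 exosomes and 634 and 653 after VT exosomes.

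Of the other glutathione transferases only 7 of 18 were tested, and 6 were listed at 0 in all 4 libraries. Of the 7, 3 lay below and 2 above (median log2 difference -0.02), beside 18% and 24.3% of all rows. Gstt1, of the theta class, was at 2.94 and 2.62 FPKM after PRL-3 exosomes and at 1.28 and 1.13 after VT exosomes, and its relative Gstt3 was at 5.43 and 6.64 against 4.32 and 4.14. Both lay above in both PRL-3 libraries, with log2 differences of 0.78 and 0.42 (adjusted p = 0.445 and 0.506, limma). Lower in both were Mgst2, at 10.5 and 11.9 FPKM against 13.6 and 12.3, and Gstm4. The third lower gene was Gstt2, another theta-class enzyme, at 3.33 and 3.42 FPKM against 5.19 and 4.46 (log2 difference -0.41, adjusted p = 0.508, limma). Gstm4 and Gstt2 were named after their values had been seen.

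Of the other thioredoxin, superoxide and selenium genes 20 of 23 were tested. Of these, 7 lay below and 3 above, beside 18% and 24.3% of all rows, and none passed the adjusted p. Txnip, which binds thioredoxin and blocks it, was at 196 and 167 FPKM after PRL-3 exosomes and at 129 and 124 after VT exosomes, higher in both (log2 difference 0.51, SE 0.12, adjusted p = 0.445, limma). Sephs2, which makes the selenium donor for selenoproteins, was at 38.3 and 45.0 FPKM against 51.1 and 57.6, lower in both (log2 difference -0.38, adjusted p = 0.494, limma). Among 18 genes of glutathione turnover, 13 were tested, and Glrx, glutaredoxin, was at 176 and 206 FPKM against 252 and 245 (log2 difference -0.39, adjusted p = 0.488, limma). Slc25a40, a relative of the mitochondrial glutathione carrier, was at 13.2 and 10.4 FPKM against 8.26 and 8.22.

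The list of NRF2 regulators and other NRF2 targets had 23 of 25 genes tested, with 4 below and 5 above, beside 18% and 24.3% of all rows. Hmox1, heme oxygenase 1, was at 266 and 181 FPKM after PRL-3 exosomes and at 233 and 187 after VT exosomes, with overlapping groups. Slc7a11, the cystine importer that feeds glutathione synthesis, also overlapped at 91.8 and 94.3 FPKM against 103 and 79.5. Sqstm1, p62, which sequesters KEAP1, was at 1724 and 1127 FPKM against 1106 and 945 (log2 difference 0.45, SE 0.22, adjusted p = 0.588, limma). Sqstm1 was above both VT libraries in both PRL-3 libraries, by far more in replicate 1 than in replicate 2. Nfe2l1 was also higher in both, at 203 and 173 FPKM against 165 and 146 (log2 difference 0.27, adjusted p = 0.576, limma). Fth1, the ferritin heavy chain, overlapped at 13428 and 8626 FPKM against 10106 and 10356 (log2 difference 0.07). Lower in both PRL-3 libraries were Ftl1, the ferritin light chain, at 6474 and 5102 FPKM against 6806 and 6481 (log2 difference -0.21, adjusted p = 0.703, limma), and Lrp8, a lipoprotein receptor. Lrp8 was at 5.68 and 6.98 FPKM against 10.00 and 9.13 (log2 difference -0.53, SE 0.14, adjusted p = 0.464, limma). Hmox1, Slc7a11 and Sqstm1 were picked for mention after their values had been seen.

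The metal handling list had 9 of 12 genes tested, with none below and 2 above, beside 18% and 24.3% of all rows. The zinc exporter Slc30a1 was at 10.95 and 8.49 FPKM against 7.68 and 6.23 (log2 difference 0.43, adjusted p = 0.514, limma). Of the NADPH oxidase genes 9 of 10 were tested, and none lay on one side in both libraries. Cyba, the p22phox subunit, was at 355 and 316 FPKM after PRL-3 exosomes and at 329 and 343 after VT exosomes.

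The summed levels of some marker lists were not the same in the groups. The 10 macrophage markers summed to 8651 and 8753 FPKM after PRL-3 exosomes and to 9824 and 9870 after VT exosomes. Most of each sum was Lyz2, at 5916 and 5988 against 6822 and 6831, followed by Cd14 at 884 and 1048 against 1152 and 1206. Of the 9 macrophage markers tested, 3 lay below and 1 above, beside 18% and 24.3% of all rows, and none passed the adjusted p. The 10 stellate cell and fibroblast markers summed to 14.2 and 11.8 FPKM against 7.86 and 6.98, with Lrat listed at 0. Dcn, the one of highest mean, overlapped at 6.63 and 4.32 FPKM against 5.44 and 4.65 (adjusted p = 0.926, limma). Acta2 was at 1.94 and 2.61 against 0.97 and 0.86 (adjusted p = 0.449, limma). Only 3 of these 10 were tested, with 2 above and none past the adjusted p, and 6 were under 1 FPKM in every library. The 8 neutrophil markers summed to 217 and 271 FPKM against 309 and 247. Nearly all of it was S100a8, whose groups overlapped, and 5 of the 8 were listed at 0. The 8 liver endothelial cell markers summed to 1.23 and 3.39 FPKM against 1.86 and 1.78. The sums for hepatocyte markers (0.30 FPKM or less), T, B and NK cell markers (0.15 or less) and epithelial markers (0.15 or less) were near 0 in every library. In bulk RNA, fewer cells of a type and less RNA per cell cannot be told apart, and the part of the macrophage and stellate cell markers in the values of the NADPH enzymes and transferases was not tested.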

How the data were processed

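Kupffer-labelled cells given MC38-PRL-3 or MC38-VT exosomes gave 2 libraries each, grouped by title. The authors deposited 1 FPKM value per gene row and library. That unit was read from the values (sums of 675475 to 725599, not whole, and stepped by transcript length). RSEM, DESeq2 and mm10 are in the submitters' processing notes without role or version, and the aligner is not given in the sources used here. Depth was fitted from low values of genes with 1 transcript of 600 to 2000 bases. Within 0.2 fragments, 90.8% to 93.7% came out whole (40% by chance).

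Rows with an FPKM of 1 in at least 2 libraries (12193) were compared with limma 3.58.1 (R 4.3.3) on log2(FPKM + 1), which understates changes of low genes, with trend and robust moderation and Benjamini-Hochberg adjustment over all rows. The fit was run on simulated data with changes larger than any member difference. Its power at the sizes seen here was not tested. Gene positions came from GENCODE M21 (GRCm38), transcripts with near-identical copies from BLAST 2.17.0 (95% identity over 200 bases), and promoters from RefSeq. The members and lists were chosen with earlier results of these data known. Named were all 36 members and, per pathway list, from the 2 genes of highest mean and the 2 of lowest p, apart from the exceptions stated. The alternatives changed the pseudocount, filter, scaling, moderation, replicate block, rows per symbol and libraries used. One overlap of a member with another gene is not reported here.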

Additional observations from a re-analysis of the deposited data

How the results depend on the processing

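No member passed an adjusted p of 0.05 under any of the 13 alternatives, nor did any of the other pathway genes. Changes of filter, moderation, block or rows per symbol left the differences themselves as they were and could not turn a sign. Of 403 log2 differences of members, 380 kept their sign and 23, in 11 members, changed it. Of these, 16 came from leaving out a library. The others were Nfe2l2 (-0.0111) and Prdx3 (-0.0170) with scaling by the median of ratios, Gpx4 (0.0163), Prdx6 (0.0112) and Mt1 (0.0373) with quantile normalization, and Gpx4 (4.69e-05) and Prdx6 (0.00901) after rescaling to a sum of 1e6. With each library left out in turn, the difference ranged from -0.134 to 0.0898 in Gpx4, -0.42 to 0.0458 in Txn1, -0.0590 to 0.169 in Txnrd1, -0.21 to 0.34 in Srxn1, -0.24 to 0.0519 in Sod1, -0.17 to 0.10 in Mt2, -0.10 to 0.12 in Nfe2l2, -0.15 to 0.0518 in Gclm, -0.17 to 0.18 in Prdx3 and -0.0747 to 0.0482 in Prdx6. The cause was not tested.

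The median difference of the members ranged from -0.12 without PRL-3 replicate 2 to -0.00174 with replicate 1 of that group dropped. The members below ranged from 12 to 18 and those above from 8 to 13, where fewer libraries make a gap between groups easier to reach. Of all rows, 39.9% lay below without PRL-3 replicate 2 (18 members) and 43.9% above without PRL-3 replicate 1 (13 members). No other share of all rows was counted with a library left out. Rows called among all genes numbered 6, but 1 with a pseudocount of 0.1, 0 without a filter, 1 with a mean FPKM of 5 or more, 2 without trend and robust moderation, and 0 to 100 with a library left out (100 when PRL-3 replicate 2 was dropped, 2 when replicate 1 was, and 0 for each VT library). With the replicate number as a block 15 rows were called and no member. The labels tie the numbers to no shared batch, and the deviations of same-numbered libraries correlated at -0.0578 over genes.

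The log2 ratio of summed FPKM was -0.26 for the NADPH group, and -0.24 after rescaling and -0.28 by the median of ratios. For transferases it was 0.33, and 0.36 and 0.31. With a library left out it ranged from -0.14 to 0.01 for NRF2 and KEAP1, -0.21 to -0.0458 for glutathione synthesis and recycling, -0.32 to 0.0156 for glutathione peroxidases, -0.12 to 0.0568 for the thioredoxin system and -0.22 to -0.000782 for catalase and superoxide dismutase. No scaling moved the median of all rows by over 0.1. Depth limits Nqo1, Mgst1 and Gpx3, which rest on a few fragments, and 2 libraries a group limit the rest.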
